A study of Mus musculus with 19 samples.

Results

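Expression of 9 primitive endoderm genes was compared between mouse embryonic stem cells with and without Trim71 and Lin28a. The set was given by name and chosen with earlier results of these data known, so counts of its members are not independent of them. It holds the transcription factor genes Gata4, Gata6, Sox7, Sox17 and Foxa2, the receptor gene Pdgfra, and the endocytosis genes Dab2, Cubn and Amn. All 9 were found among the 21685 genes of the deposited expression table.

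Primitive endoderm is the extraembryonic layer that forms beside the pluripotent epiblast in the blastocyst and later gives rise to visceral and parietal endoderm. FGF signalling through ERK favours this fate, Nanog opposes it, and Gata6 lies at the top of a cascade that runs through Gata4, Sox17 and Sox7. Embryonic stem cells grown in serum can switch on these genes in a minority of cells, and forced expression of a GATA factor is enough to convert them into endoderm-like cells. TRIM71 is a stem cell protein that binds RNA and has a RING domain of ubiquitin ligases, and LIN28A keeps let-7 precursors from being processed.

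The study sequenced mRNA from male C57BL/6 cells with 4 genotypes, named by their Trim71 state and then their Lin28a state. WT-WT cells were Trim71 fl/fl and Lin28a fl/fl, with both floxed genes unrecombined. KO-WT cells were Trim71 -/- and Lin28a fl/fl, WT-KO cells were Trim71 fl/fl and Lin28a -/-, and KO-KO cells lacked both. Loss of Trim71 was induced with 500 nM 4-hydroxytamoxifen (4-OHT) for 2 days, and harvest came no sooner than 7 days after it. The protocol describes this treatment for the Trim71-null cells alone, so drug exposure and Trim71 loss cannot be told apart. All cells were kept in serum with leukaemia inhibitory factor and were enriched by magnetic beads for SSEA-1, a surface antigen of undifferentiated cells. How this sort changed the number of endoderm cells in each genotype was not tested. Lin28a-intact cells came from clones 1 and E3, and Lin28a-null cells from clones 1-4 and C1, so clone and Lin28a state cannot be told apart. The labels do not say that the libraries of a clone were separate derivations, and p-values measure the spread between these libraries.

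Values are on the deposited log2 scale, from which harvest-day differences had already been removed, and the depth of the libraries is unknown. They are not scaled for transcript length, so levels are compared between genotypes and not between genes. KO-WT replicate 5 held nothing but the average of its genotype and was left out, which left 4 WT-WT, 4 KO-WT, 5 WT-KO and 5 KO-KO libraries. Trim71 lay at 10.04 or above in every Trim71-intact library and at 9.55 or below in every Trim71-null library. Lin28a lay at 9.74 or above where intact and at 8.57 or below where deleted, so both transcripts separated as labelled and both remained measurable. In these bulk samples, fewer primitive endoderm cells and less RNA per cell cannot be told apart.

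The sequences just upstream of the 3 endocytosis genes are shown because these genes include the largest differences of the set. RefSeq (GRCm38.p6) windows were at hand for 5 of the 9 genes, and each runs from 250 to 11 bases before an annotated start, written 5′ to 3′ on the gene's strand. The Cubn window lies at chr2:13491887-13492126 on the minus strand, the Dab2 window at chr15:6299539-6299778 on the plus strand (the more distal of its annotated starts) and the Amn window at chr12:111270846-111271085 on the plus strand. Capitals mark matches to a GATA motif.
Cubn: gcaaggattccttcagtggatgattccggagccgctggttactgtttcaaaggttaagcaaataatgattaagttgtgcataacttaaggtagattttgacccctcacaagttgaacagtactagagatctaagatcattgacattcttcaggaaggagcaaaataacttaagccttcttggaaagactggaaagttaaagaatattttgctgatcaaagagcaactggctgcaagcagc
Dab2: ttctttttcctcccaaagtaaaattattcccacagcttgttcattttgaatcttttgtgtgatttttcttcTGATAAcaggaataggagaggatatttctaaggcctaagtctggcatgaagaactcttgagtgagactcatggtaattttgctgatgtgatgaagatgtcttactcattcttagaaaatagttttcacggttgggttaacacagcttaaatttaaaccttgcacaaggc
Amn: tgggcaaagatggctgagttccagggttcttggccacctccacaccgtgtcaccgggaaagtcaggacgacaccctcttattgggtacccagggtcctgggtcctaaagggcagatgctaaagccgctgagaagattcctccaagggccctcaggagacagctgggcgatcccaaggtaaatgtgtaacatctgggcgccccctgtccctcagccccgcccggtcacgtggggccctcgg
The GATA motif searched was GATA preceded by A or T and followed by A or G, on both strands. The printed Dab2 window held 1 match, shown in capitals, from 179 to 174 bases before the start, and the Cubn and Amn windows held 0. The window of the other annotated Dab2 start, not printed, held 0 as well. Of 32851 RefSeq windows of 240 bases, 25.9% held such a match. A forkhead motif (TGTTTAC, with its A allowed to be G) and a SOX motif (AACAA followed by T or A), searched on both strands, were in none of the 3 printed windows, against 7.06% and 24.3% of all windows. Where a motif overlapped another it was counted under each.

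The study's title concerns let-7, so the mature let-7a and let-7g sequences are shown with the seed, bases 2 to 8, in capitals.
mmu-let-7a-5p: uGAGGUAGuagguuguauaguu
mmu-let-7g-5p: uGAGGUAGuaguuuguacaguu
Both share the seed GAGGUAG, whose complement in mRNA is CTACCTC. In the longest annotated transcript of each of the 9 genes, 1 match was found, in the 11262 bases of Cubn. Of 21877 coding genes, 20.9% held at least 1 match.

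The comparison of WT-KO with WT-WT, Lin28a loss in cells that keep Trim71, asked whether these genes depend on Lin28a. All 9 were lower without Lin28a. The fall ran from 13.3-fold for Cubn to 1.20-fold for Sox7, and in every gene except Sox7 the highest WT-KO library lay below the lowest WT-WT library. The share of all genes with such separate ranges was not counted, so this describes the members only. A gene is called here when limma gives a Benjamini-Hochberg adjusted p under 0.05 over the genes that reached 3.322, the log2 of 10 units, in at least 4 libraries. Gata4, Gata6, Sox7, Pdgfra, Dab2, Cubn and Amn passed that filter, and Amn did so only through its Lin28a-intact libraries. Sox17 and Foxa2 did not pass, and were tested in a fit of all 21685 genes. Of the 7 members past the filter 7 were called lower, where 22.0% of the 14988 genes tested were. Amn counts among the 7 although it passed only where Lin28a was intact, and every other member past the filter was called lower too. Without the filter 9 of 9 were called lower, in a fit that called 7842 of 21685 genes in either direction. The median difference of the 9 was -1.34 log2 units, beside -0.0040 for all 21685 genes.

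Among the transcription factors, Gata4, a zinc finger factor that maintains extraembryonic endoderm, was at 6.33, 6.45, 6.66 and 6.31 in the WT-WT libraries. It was at 4.68, 4.91, 5.12, 4.86 and 4.64 in WT-KO. Every WT-KO library was low and the genotypes did not overlap. The difference was -1.60 ± 0.151 (SE) log2 units, 3.02-fold lower, with a limma adjusted p of 6.13e-07.

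Gata6, the earliest factor of the lineage, was at 4.53, 4.88, 4.82 and 4.43 in WT-WT and at 3.18, 3.36, 3.47, 3.47 and 3.13 in WT-KO. Again no WT-KO library reached the WT-WT range, and 2 of the 5 lay under the filter. Gata6 differed by -1.34 ± 0.141 (limma adjusted p 1.81e-06), in 4 of 4 same-day pairs.

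Sox7, an HMG-box factor that acts late in the cascade, was at 3.93, 4.01, 4.07 and 3.82 in WT-WT and at 3.61, 3.91, 3.56, 3.76 and 3.60 in WT-KO. The ranges overlapped, through WT-KO replicate 2 at 3.91. Its difference of -0.27 ± 0.101 had a limma adjusted p of 0.0417. This call was lost in either clone set alone (0.117 in clones 1 and 1-4, 0.163 in clones E3 and C1), under 75th percentile scaling (0.051) and in 7 of 18 fits that each left out 1 library. Those libraries were WT-WT replicates 1, 2 and 3 (adjusted p 0.0706, 0.114 and 0.142), WT-KO replicates 1, 3 and 5 (0.118, 0.114 and 0.109) and KO-WT replicate 2 (0.0517).

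Sox17, a relative of Sox7 needed for endoderm, ran from 2.75 to 3.18 in WT-WT and from 2.11 to 2.37 in WT-KO. Foxa2, a forkhead factor of visceral and definitive endoderm, ran from 1.498 to 1.89 in WT-WT and from 0.96 to 1.20 in WT-KO. Both genes were low everywhere, yet neither pair of ranges overlapped. Their differences were -0.78 ± 0.118 for Sox17 (limma adjusted p 7.66e-05) and -0.68 ± 0.0896 for Foxa2 (adjusted p 2.14e-05). Scatter between libraries, taken as the median of the residual SDs, was 0.0845 where gene means lay from 1 to 2. It was 0.107 from 2 to 3, 0.128 from 3 to 4, 0.136 from 5 to 6 and 0.0856 from 8 to 9. Among these bins scatter was smallest at the lowest means. Whether the deposited scale compresses low values was not tested. The fold sizes of these 2 genes, and of other members near the filter such as Amn, hold for the deposited scale only.

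Pdgfra encodes a receptor tyrosine kinase for PDGF and is a standard surface marker of primitive endoderm. It was at 5.05, 5.34, 5.47 and 4.84 in WT-WT and at 3.44, 3.75, 3.92, 3.71 and 3.43 in WT-KO. The WT-KO libraries formed a lower group with no overlap. The difference was -1.52 ± 0.176, 2.88-fold lower (limma adjusted p 5.15e-06).

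Dab2 is a clathrin adaptor that links receptors to endocytosis and positions endoderm at the surface of cell aggregates. Its values were 7.20, 7.45, 7.26 and 6.76 in WT-WT and 4.10, 4.50, 4.57, 4.63 and 4.15 in WT-KO. More than 2 log2 units separated the closest libraries of the 2 genotypes. Dab2 differed by -2.78 ± 0.183, 6.87-fold lower (limma adjusted p 9.27e-09), and had the 22nd lowest log2 difference of the 14988 genes.

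Cubn encodes cubilin, the large receptor through which visceral endoderm takes up maternal nutrients. It was at 7.94, 8.45, 8.49 and 7.995 in WT-WT and at 4.23, 4.53, 4.84, 4.64 and 4.18 in WT-KO. No library of either genotype came near the other. The difference of -3.74 ± 0.204 (limma adjusted p 1.135e-09) was the 4th lowest of the 14988 genes.

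Amn encodes amnionless, the membrane partner that carries cubilin to the cell surface. It was at 4.27, 3.79, 4.24 and 3.63 in WT-WT and at 2.83, 3.07, 3.24, 2.90 and 3.16 in WT-KO. The WT-WT libraries were spread widely, but all lay above the WT-KO libraries, of which 0 reached the filter. Amn differed by -0.94 ± 0.131, 1.92-fold lower (limma adjusted p 3.32e-05), a smaller log2 difference than that of Cubn.

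**Figure D1:**
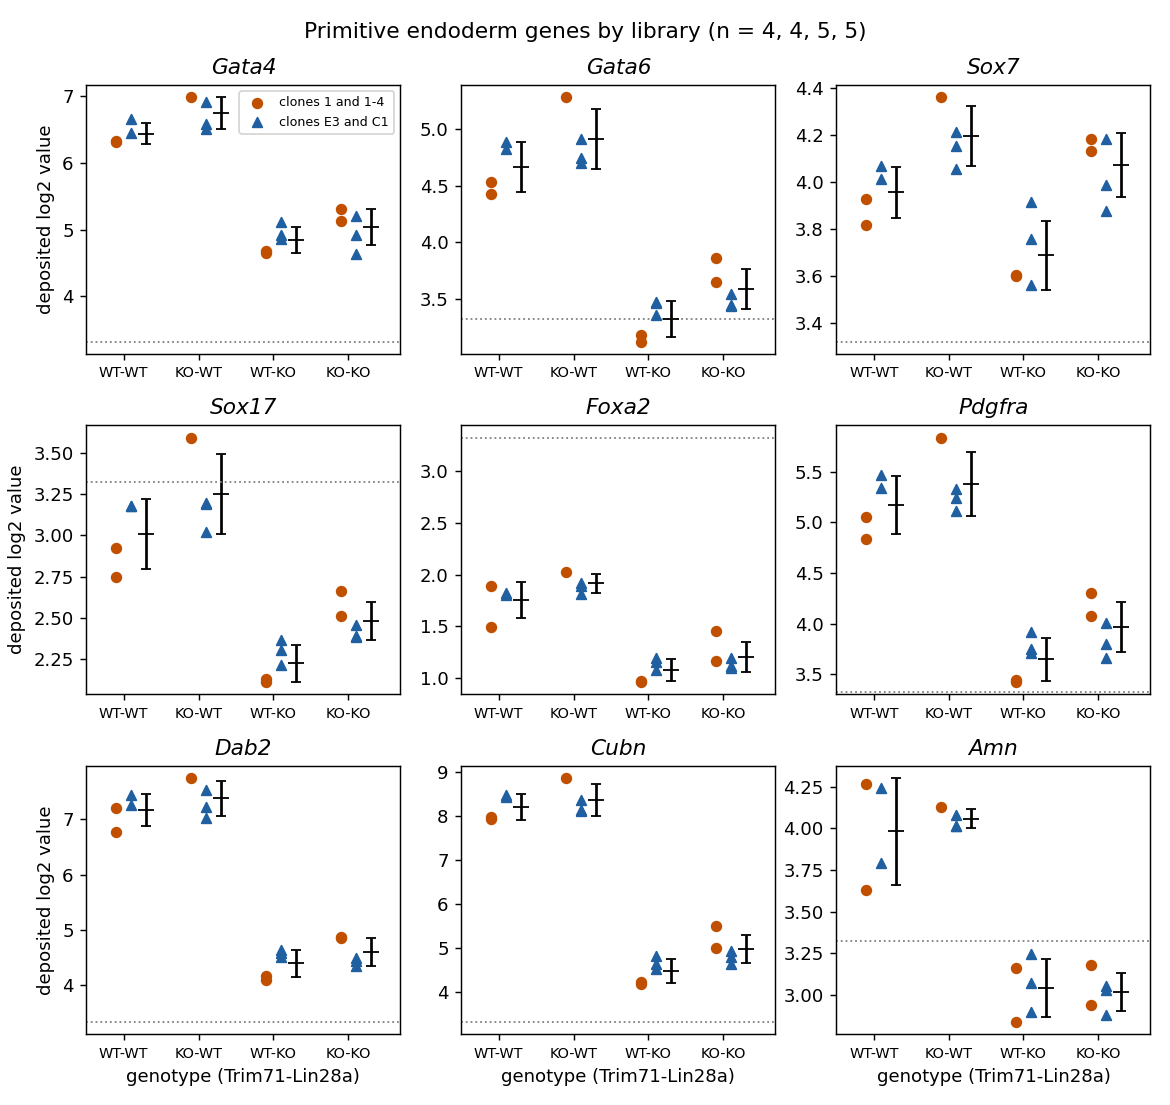
Deposited log2 values (y axes, each with its own range that does not start at 0) of the 9 genes in the 18 libraries by genotype (x axes; 4, 4, 5 and 5 libraries). Circles are clones 1 and 1-4, triangles clones E3 and C1, black bars the mean and SD, and the dotted line the filter at 3.322; in all panels but Sox7, WT-KO and KO-KO lie below WT-WT and KO-WT without overlap.

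The same question in Trim71-null cells compared KO-KO with KO-WT. These libraries are separate from those above but come from the same clones, so the comparison is not an independent repeat. Again Cubn and Dab2 had the largest falls, and Sox7 did not pass the test. Of the 7 members past the filter 6 were called lower, Amn among them, against 22.0% of all genes tested. Without the filter 8 of 9 were, in a fit that called 8090 of 21685 genes in either direction. The median of the 9 was -1.32, beside 0.0013 for all genes. The ranges overlapped in Sox7 and were separate in the other members, and the share of all genes with separate ranges was not counted here either.

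Cubn was at 8.36, 8.13, 8.12 and 8.87 in KO-WT and at 5.51, 4.95, 4.64, 4.81 and 5.01 in KO-KO. Dab2 was at 7.53, 7.03, 7.22 and 7.75 in KO-WT and at 4.86, 4.34, 4.49, 4.43 and 4.87 in KO-KO. In both genes the KO-KO libraries stood well below every KO-WT library. Cubn differed by -3.39 ± 0.204 (limma adjusted p 4.11e-09) and Dab2 by -2.79 ± 0.183 (adjusted p 9.49e-09).

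Gata4 was at 6.51, 6.59, 6.92 and 6.99 in KO-WT and at 5.31, 5.21, 4.92, 4.63 and 5.14 in KO-KO. Pdgfra was at 5.24, 5.11, 5.33 and 5.84 in KO-WT and at 4.30, 4.01, 3.80, 3.66 and 4.07 in KO-KO. Gata6 was at 4.91, 4.70, 4.74 and 5.28 in KO-WT and at 3.86, 3.55, 3.44, 3.45 and 3.65 in KO-KO. KO-KO was the lower genotype in every library of these 3 genes. The limma differences were -1.71 ± 0.151 for Gata4 (adjusted p 2.61e-07), -1.41 ± 0.176 for Pdgfra (adjusted p 1.11e-05) and -1.32 ± 0.141 for Gata6 (adjusted p 2.23e-06).

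Amn ran from 4.01 to 4.13 in KO-WT and from 2.88 to 3.18 in KO-KO, a difference of -1.04 ± 0.131 (limma adjusted p 1.13e-05). Sox17 differed by -0.77 ± 0.118 (adjusted p 9.05e-05) and Foxa2 by -0.71 ± 0.0896 (adjusted p 1.29e-05), again with separate ranges. Sox7 was at 4.05, 4.15, 4.21 and 4.36 in KO-WT and at 4.18, 3.99, 4.18, 3.88 and 4.13 in KO-KO. These ranges overlapped, and the difference of -0.12 ± 0.101 was not called (limma adjusted p 0.347, 95% interval -0.34 to 0.09).

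Loss of both genes was compared with neither, KO-KO against WT-WT, a comparison that shares its WT-WT and KO-KO libraries with those above. Of the 7 members past the filter 6 were called lower, Amn among them, where 24.6% of all genes tested were. Without the filter 8 of 9 were, in a fit that called 8489 of 21685 genes in either direction. The median of the 9 was -1.08, beside -0.012 for all genes. Cubn differed by -3.23 ± 0.204 and Dab2 by -2.57 ± 0.183 (limma adjusted p 5.93e-09 and 2.02e-08). The fitted differences were -1.40 for Gata4, -1.20 for Pdgfra, -1.08 for Gata6 and -0.97 for Amn. Sox17 (-0.53) and Foxa2 (-0.55) fell least among the 8 called genes, and Sox7 was at 0.12 ± 0.101 (limma adjusted p 0.370). In clones 1 and 1-4 alone, Sox17 (-0.25, adjusted p 0.134) and Foxa2 (-0.38, adjusted p 0.0786) were no longer called.

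**Figure D2:**
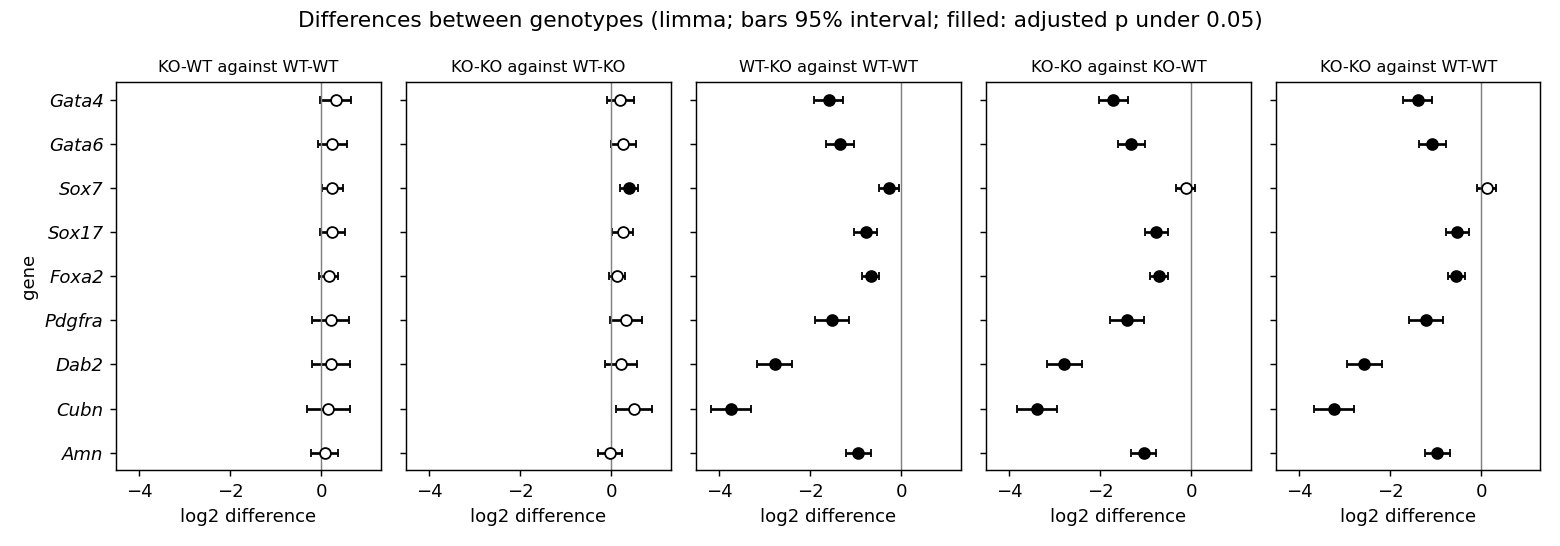
Log2 differences (x axes) of the 9 genes (y axis) in 5 comparisons of genotypes, with 95% intervals from limma; filled points have an adjusted p under 0.05, and Sox17 and Foxa2 are from the fit of all genes. The 3 panels on the right, which cross Lin28a states, hold values from -3.74 to 0.12, and the 2 panels on the left, which are Trim71 losses, hold values from -0.03 to 0.50.

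Loss of Trim71 with Lin28a intact, KO-WT against WT-WT, asked whether the genes depend on Trim71. All 9 differences were positive and small, between 0.08 for Amn and 0.31 for Gata4, and every pair of ranges overlapped. Without KO-WT replicate 4 the difference was -0.020 for Pdgfra, -0.095 for Cubn, 0.060 for Gata6 and 0.073 for Sox17. Without WT-WT replicate 4 it was -0.097 for Amn and 0.014 for Dab2, and without WT-WT replicate 2 it was -0.018 for Amn. Limma called 0 of the 7 members past the filter and 0 of 9 without it, where 11.2% of all genes were called in either direction. The median of the 9 was 0.21, beside -0.0065 for all genes. Of these, 1 member, Sox7, had an unadjusted p under 0.05, at 0.24 ± 0.109 (adjusted p 0.159), where 29.2% of all genes tested had one. The 95% intervals of the other 8 genes included 0, and the highest bound of any was 0.66, for Gata4. These intervals pool clones 1 and E3, which differed. Cubn, for example, was at 0.88 in the same-day pair of clone 1 and at -0.32 and -0.38 in clone E3.

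Without Lin28a, KO-KO against WT-KO, 8 of 9 differences were positive and Amn was at -0.03. Without WT-KO replicate 3 or 5, or KO-KO replicate 1 or 4, Amn was above 0, by 0.041 at most. Sox7 was the 1 member called of 7, where 8.38% of all genes were called. The median of the 9 was 0.26, beside -0.0064 for all genes. The Sox7 values in KO-KO (4.18, 3.99, 4.18, 3.88 and 4.13) overlapped the WT-KO values (3.61, 3.91, 3.56, 3.76 and 3.60) only through WT-KO replicate 2 and KO-KO replicate 4. Sox7 was higher by 0.38 ± 0.0932 (limma adjusted p 0.0189), in 5 of 5 same-day pairs. The call was lost in clones 1 and 1-4 alone (0.0548), in the 3 days with all genotypes (0.096), in a fit of the 2 genotypes alone (0.0538) and in clones E3 and C1 alone (0.390). It was lost too without WT-KO replicate 1 (0.0612) or 5 (0.0585), or KO-KO replicate 1 (0.0717) or 3 (0.0573).

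Cubn had the largest Trim71 difference in these cells, 0.50 ± 0.189, which was not called (limma adjusted p 0.118, 95% interval 0.10 to 0.90). Sox17 was higher in every KO-KO library (2.38 to 2.66) than in every WT-KO library (2.11 to 2.37), but its 0.26 ± 0.109 was not called either (adjusted p 0.212). The interaction, the Trim71 difference without Lin28a minus that with it, called 0 of 7 members, with 0 at an unadjusted p under 0.05, where 0.0200% of all genes were called and 15.1% had such a p. Its values lay between -0.12 for Gata4 and 0.35 for Cubn.

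The Trim71 differences of most members split by clone. In clones 1 and 1-4, harvested on days 1 and 5, the same-day differences of Cubn were 0.88 with Lin28a intact and 1.28 and 0.82 without it. In clones E3 and C1, harvested on days 2, 3 and 4, they were -0.32 and -0.38 with Lin28a intact and 0.43, -0.20 and 0.18 without it. The first set of clones was higher in each case.

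Pdgfra differed by 1.00 on the single day of clone 1, and by -0.23 and -0.14 in clone E3. Gata6 differed by 0.85 in clone 1, and by -0.18 and -0.08 in clone E3. Dab2 differed by 0.99 in clone 1, and by -0.43 and -0.04 in clone E3. These 3 genes thus had a positive difference in clone 1 and negative ones in clone E3. Sox7 did not split this way without Lin28a. It differed by 0.57 and 0.53 in clone 1-4, and by 0.07, 0.62 and 0.12 in clone C1.

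Fitted on clones 1 and 1-4 alone, limma called 4 of 7 members higher in KO-WT than WT-WT (Gata4 0.70, Gata6 0.86, Pdgfra 0.97 and Cubn 0.99), where 2.30% of all genes were called. This set holds 1 KO-WT library, whose spread is assumed to be that of the other genotypes. In KO-KO against WT-KO the same clones gave 5 of 7 called higher (Gata4 0.56, Gata6 0.60, Pdgfra 0.75, Dab2 0.74 and Cubn 1.05), where 1.91% of all genes were called. Clones E3 and C1 alone called 0 members in both comparisons, where 0.0667% and 1.02% of all genes were called. At an unadjusted p under 0.05 there were 0 members with Lin28a intact and 1, Sox7, without it, beside 17.4% and 12.4% of all genes.

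In a joint fit of all libraries with a mean for each genotype in each clone set, added after the values were seen, fewer of these calls held. In clone 1, 2 of 7 members were called (Gata6 and Pdgfra), where 0.374% of all genes were, and Gata4 (limma adjusted p 0.290) and Cubn (0.0563) were not. In clone 1-4, 3 of 7 were called (Gata6, Pdgfra and Cubn), where 0.287% of all genes were, and Gata4 (adjusted p 0.290) and Dab2 (0.0900) were not. Clones E3 and C1 gave 0 of 7 each in the joint fit, where 0.500% and 2.31% of all genes were called.

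The difference between clone sets was then tested itself in the joint fit. It was positive for all 9 members in both Lin28a states, from 0.14 to 0.92 without Lin28a and from 0.18 to 1.29 with it. None passed adjustment: Cubn was at 0.92 ± 0.200 without Lin28a (limma adjusted p 0.662) and at 1.29 ± 0.248 with it (adjusted p 0.307). Unadjusted, 5 of the 7 members past the filter were under 0.05 without Lin28a and 4 with it, beside 2.62% and 5.28% of all genes tested. Over all genes this test called 0% without Lin28a and 0.00667% with it. Clones and harvest days went together, so the 2 cannot be told apart.

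**Figure D3:**
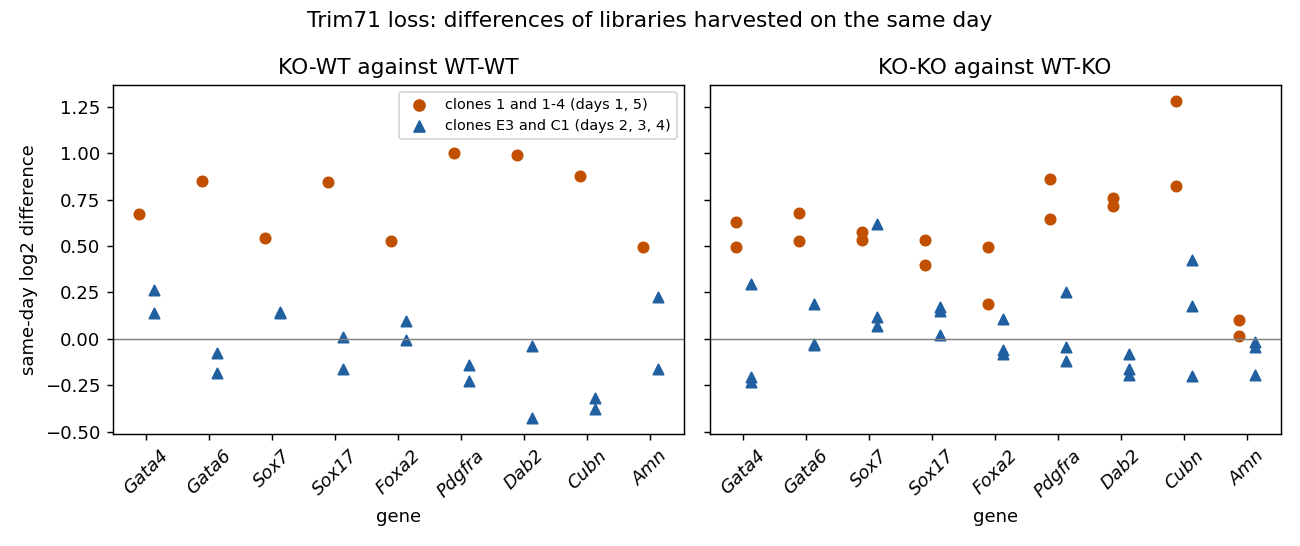
Log2 differences between libraries harvested on the same day (y axis) for the 9 genes (x axes), KO-WT minus WT-WT on the left and KO-KO minus WT-KO on the right; each point is 1 day. On the left, day 5 in clone 1 (circles) lies above the 2 days of clone E3 (triangles) for every gene.

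The fall with Lin28a loss was close in both clone sets. In the same fit, Cubn differed between WT-KO and WT-WT by -3.76 in clones 1 and 1-4 and by -3.83 in clones E3 and C1. Dab2 differed by -2.86 and -2.81, Gata4 by -1.66 and -1.60, and Pdgfra by -1.51 and -1.63. The difference between sets was 0.07 ± 0.213 for Cubn (limma adjusted p 1.00).

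In the order of mean levels, WT-KO was lowest, followed by KO-KO, WT-WT and KO-WT, for Gata4, Gata6, Sox17, Foxa2, Pdgfra, Dab2 and Cubn. In Amn the 2 Lin28a-null genotypes changed places. Neighbours in that order that share a Lin28a state overlapped in each of these genes, except WT-KO and KO-KO in Sox17. In Sox7 the order was WT-KO, WT-WT, KO-KO and KO-WT, and every neighbouring pair overlapped.

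Across the 18 libraries, Pearson's r between 2 members had a median of 0.951 over 36 pairs. The 28 pairs without Sox7 had an r of at least 0.885, and the 8 pairs with Sox7 ran from 0.459 to 0.725. After each genotype's mean was subtracted the median was 0.63, with a range from 0.13 to 0.96. These points share libraries, days and the removed day effect, and most of the spread is the gap between Lin28a states.

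The genes most like each member over the 18 libraries were found among all genes tested. Col4a1 and Col4a2, the basement membrane collagen IV chains, were most like Cubn (r 0.997 and 0.996). F3 and Tinagl1 were most like Dab2 (both 0.993), and Hkdc1 and Pdgfra most like Gata6 (both 0.994). Pdgfra was closest to Gata6 and Gm15419 (0.994 and 0.990), and Gata4 to Bcl2l1 and Ddah1 (0.988 and 0.986). Amn was closest to Slc40a1 and Basp1 (0.973 and 0.970), and Sox7 to Nipa2 and Fam168a (0.960 and 0.933).

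Genes of the wider lineage were read from lists of general knowledge in WT-KO against WT-WT. These lists and the marker lists below were chosen with earlier results of these data known, so their counts are not independent of them. Of 14 parietal endoderm genes, which make basement membrane and its regulators, 13 were tested and 11 fell, where 22.0% of all genes did. Plat and Snai1, both among the 11, passed the filter only through libraries with Lin28a intact; of the other 11 tested, 9 fell. Col4a2 (-2.85 ± 0.191) and Col4a1 (-2.69 ± 0.172) fell most, and Nid1, which encodes the linker protein nidogen, rose by 0.21 ± 0.0710. The median of the 13 was -0.73, beside -0.0077 for all genes tested, and -0.64 with the untested Thbd included. In KO-KO against KO-WT, 10 of the 13 were lower, Plat and Snai1 among them, and 1, Nid1, was higher. Of all genes tested, 22.0% were called lower there.

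Of 19 visceral endoderm genes, 15 were in the table and 7 were tested, of which 3 fell and 1 rose, where 22.0% of all genes fell and 20.3% rose. The median was 0.024 over the 7 and -0.31 over the 15. Lrp2, the megalin receptor that works with cubilin, fell by 2.33 ± 0.180 and Cited1, a transcriptional coregulator, by 1.02 ± 0.0841. Apoa2, an apolipoprotein gene, rose by 0.37 ± 0.0787. Most late visceral genes did not pass the filter, such as Apoa1, at 0.51 or below in every library.

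Of 8 partners of cubilin in receptor-mediated endocytosis, 6 fell, 1 rose and Myo6 did not pass the test. Among all genes tested 22.0% fell and 20.3% rose. Lrp2 led again, followed by Lrpap1, the chaperone of megalin (-0.94 ± 0.0618), while Gipc1, an adaptor, rose by 0.16 ± 0.0583. The median of the 8 was -0.26, beside -0.0077 for all genes tested.

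Of the 16 genes of the FGF to ERK route and Nanog, 5 rose and 5 fell, where 20.3% of all genes rose and 22.0% fell. Nanog, which opposes the primitive endoderm fate, rose by 0.86 ± 0.0772 (limma adjusted p 3.44e-07). The ERK gene Mapk3 rose by 0.32 ± 0.0600. The receptor gene Fgfr2 fell by 0.76 ± 0.0671 and the adaptor gene Frs2 by 0.30 ± 0.0586. Their median of 0.01 lay beside that of all genes.

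Of the PDGF ligands and the other receptor, 3 of 5 were tested. Pdgfb fell by 0.91 ± 0.0855 and Pdgfc by 0.65 ± 0.142, while Pdgfa was at -0.01 ± 0.0467. Among paralogs of the transcription factors 3 of 6 with values were tested. All 3 fell, where 22.0% of all genes did: Gata3 (-1.47 ± 0.0712), Gata2 (-0.55 ± 0.0807) and Gata1 (-0.26 ± 0.0774).

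After Trim71 loss the same lists moved little. Of the 13 parietal genes 1 rose in each Lin28a state, Lama1, which encodes a laminin chain (0.40 ± 0.101 with Lin28a and 0.48 ± 0.0868 without). Fgfr2 fell in both, by 0.40 ± 0.0725 and 0.31 ± 0.0621, where 11.2% and 8.38% of all genes were called in either direction.

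**Figure D4:**
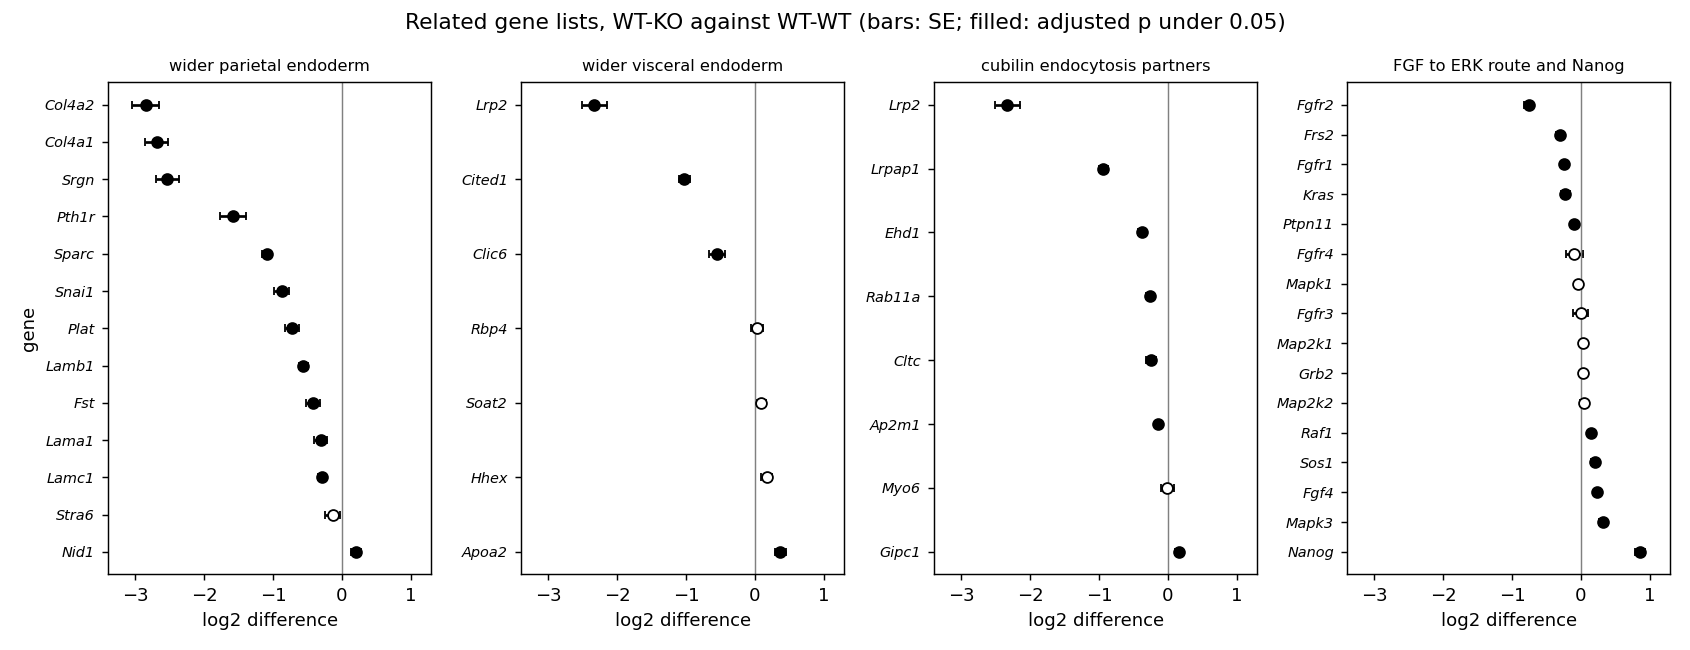
Log2 differences between WT-KO and WT-WT (x axes) with SE for the tested genes of 4 related lists (y axes); filled points have a limma adjusted p under 0.05. Col4a2, Col4a1 and Srgn lie furthest to the left, and Nanog furthest to the right.

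Markers of other cells moved with the Lin28a states as well. Of 9 trophectoderm markers 7 were tested and 5 fell in WT-KO against WT-WT, led by Krt7 (-3.19 ± 0.137) and Hand1 (-2.88 ± 0.132), where 22.0% of all genes fell. Plac1, 1 of the 5, passed the filter only through libraries with Lin28a intact; of the other 6 tested, 4 fell. The sum of the listed markers, after raising 2 to each value, ran from 1279 to 1475 units in WT-WT, 1352 to 1473 in KO-WT, 975 to 1153 in WT-KO and 820 to 968 in KO-KO. Tfap2c, at 9.42 to 9.96 over all libraries, weighed most in this sum. It was not called in WT-KO against WT-WT (0.13 ± 0.0682) and was lower in KO-KO than in WT-KO (-0.22 ± 0.0631). Cdx2 and Elf5, defining factors of this lineage, were under the filter, and Elf5 was at 1.02 or below in every library.

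Of 7 fibroblast or mesenchyme markers with values, 6 were tested and 4 fell, where 22.0% of all genes did. Acta2 (-3.29 ± 0.136) and Tagln (-3.14 ± 0.146) fell most. The sum of the listed markers ran from 444 to 573 units in WT-WT, 371 to 470 in KO-WT, 131 to 145 in WT-KO and 139 to 167 in KO-KO. Of 8 pluripotency markers 7 rose, where 20.3% of all genes did. The sum of the 8 ran from 33373 to 35303 units in WT-WT, 35377 to 38376 in KO-WT, 42697 to 49739 in WT-KO and 46752 to 50386 in KO-KO.

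Of 7 definitive endoderm and mesendoderm markers with values, 2 were tested, of which Kdr fell by 0.27 ± 0.0891. Their sum ran from 86.8 to 94.9 units in WT-WT, 92.7 to 102.0 in KO-WT, 87.8 to 94.7 in WT-KO and 86.4 to 93.8 in KO-KO. T, Mixl1 and Gsc, which define that lineage, were under the filter in every library. The part of these other cell types in the falls of the primitive endoderm genes was not tested.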

How the data were processed

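Libraries were made from total RNA with the Illumina TruSeq kit and sequenced in pairs, per the labels' protocols. The submitters' processing notes name CASAVA 1.8, STAR and DESeq2, with no role; the genome build, annotation and normalisation are not given in the sources used here. The deposited values are on a log2 scale, read from the values (-0.71 to 16.30), since no label states the unit; read depth is unknown. Harvest-day differences had been removed before deposit: a fitted day effect never exceeded 1.7e-08, but reached 2.87 once days were shuffled within genotype. KO-WT replicate 5, alone on its day, differed by at most 1.5e-08 from its genotype average over the other 4 and was left out.

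Genes at 3.322 (log2 of 10 units) or more in at least 4 of 18 libraries were tested, 14988 of 21685. Tests used limma 3.58.1 in R 4.3.3 (trended eBayes) with terms for genotype and day, 10 residual degrees of freedom, and Benjamini-Hochberg adjustment over all genes tested. The harvest day in the labels pairs the libraries; a check by correlation is void because day effects were removed. The fit was tested on simulated data. The members and lists were chosen with earlier results of these data known. Named genes are all members, up to 2 called genes each way per list and comparison, and the 2 genes most correlated with each member past the filter. GC content and length came from GENCODE M21 for 98.2% of tested genes. Alternatives covered the filter, the day term, scaling, GC and length, clone sets, days, genotypes fitted and each library left out; the split by clone was added after the values were seen. Listed genes that were not in the table, such as Gata5 and Afp, were not analysed here.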

Additional observations from a re-analysis of the deposited data

Results flagged for a closer look

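Foxa2 in KO-KO replicate 5 was at 1.46, while the other 4 KO-KO libraries ran from 1.10 to 1.19. Its gap to the nearest library was 0.741 of the genotype's whole range, above Dixon's 95% critical value of 0.71 for 5 libraries. This was 1 of 36 combinations of gene and genotype examined, and chance alone picks out about 1 in 20 such groups. Without that library Foxa2 differed between KO-KO and WT-KO by 0.05, against 0.13 with it.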

How the results depend on the processing

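The falls across Lin28a states held best. For the 8 members other than Sox7, all 690 alternative differences were lower, 688 past the threshold; the 2 exceptions are Sox17 (-0.25) and Foxa2 (-0.38) in KO-KO against WT-WT in clones 1 and 1-4 alone. The number of members called in WT-KO against WT-WT ran from 6 to 7 with each library left out in turn, and was 6 throughout in KO-KO against KO-WT and in KO-KO against WT-WT. It was 0 throughout for KO-WT against WT-WT and for the interaction, and 0 to 1 for KO-KO against WT-KO.

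For Trim71 loss with Lin28a intact, the members called were 1 with all 19 libraries and no replicate block (Sox7, adjusted p 0.0296) and 4 in clones 1 and 1-4 alone. Without Lin28a they were 2 with no replicate block, with or without the 19th library (Cubn, adjusted p 0.0386 and 0.0482), 5 in clones 1 and 1-4 alone, and 0 each on days with every genotype, in the 2 genotypes and in clones E3 and C1 alone. The replicate block is the day term; without it, degrees of freedom that the removal of day effects had used up are counted.

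Reversals were all among values that were not called. In KO-WT against WT-WT, clones E3 and C1 alone gave Gata6 -0.088, Sox17 -0.063, Pdgfra -0.20, Dab2 -0.12 and Cubn -0.30, and GC and length correction gave Amn -0.045. With 1 library left out, Pdgfra ran from -0.020 (without KO-WT replicate 4) to 0.35, Cubn from -0.095 (without KO-WT replicate 4) to 0.29 and Amn from -0.097 (without WT-WT replicate 4) to 0.20. In KO-KO against WT-KO, clones E3 and C1 alone gave Gata4 -0.046, Foxa2 -0.0095 and Dab2 -0.15; Amn was 0.032 after GC and length correction, 0.059 in clones 1 and 1-4 alone, and ran from -0.11 to 0.041 with a library left out. Sox7 in KO-KO against WT-WT was -0.034 in clones E3 and C1 alone. For the interaction, Sox17 was -0.0026 under 75th percentile scaling, Foxa2 0.071 and Amn 0.076 after GC and length correction, Gata6 -0.26, Sox17 -0.35 and Pdgfra -0.22 in clones 1 and 1-4 alone; the days with all 4 genotypes gave Gata6 -0.041 and Pdgfra -0.051. With 1 library left out, the interaction ran from -0.23 to 0.022 for Gata4, -0.082 to 0.21 for Gata6, -0.099 to 0.18 for Sox17, -0.12 to 0.092 for Foxa2, -0.031 to 0.34 for Pdgfra, -0.18 to 0.19 for Dab2 and -0.23 to 0.070 for Amn. The cause was not tested.

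Counts over all genes moved more. KO-WT against WT-WT called 1674 genes, 4219 with no replicate block, 5159 with all 19 libraries, 1073 after GC and length correction, 344 and 10 in single clone sets, 474 on days with every genotype, 30 in the 2 genotypes alone, and 528 to 1978 with a library left out (528, 602, 613, 959 and 999 without WT-WT replicates 4 and 3, KO-WT replicates 3 and 2 and WT-WT replicate 2). KO-KO against WT-KO called 1256 genes, 2618 with no replicate block, 2957 with all 19 libraries, 287 and 153 in the clone sets alone, 217 in those days, 794 in the 2 genotypes alone and 676 to 1392 with a library left out (676, 688, 692, 769 and 814 without WT-KO replicate 4, KO-KO replicates 1 and 2 and WT-KO replicates 5 and 1). Clones E3 and C1 alone called 2323 of 6351 genes in WT-KO against WT-WT, 3595 of 6412 in KO-KO against KO-WT and 2668 of 6834 in KO-KO against WT-WT, and clones 1 and 1-4 alone 2293 in KO-KO against KO-WT. The interaction called 3 genes, 673 and 1293 without the block, 1 in clones E3 and C1 alone, 0 in clones 1 and 1-4 alone, after GC and length correction, without the trend and in those days, and 0 to 4 with a library left out.

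Read depth is unknown, so counting error cannot be given. Sox17 and Foxa2 are near the floor of the deposited scale, Lin28a state goes with clone, and 4-OHT with Trim71 loss.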

Other observations

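Single libraries stood to one side of their genotype in most members at once. KO-WT replicate 4 (clone 1, day 5) was above its genotype's mean in 9 of 9 members, by a median of 0.34, and WT-WT replicate 4, of the same clone and day, was above it in 0 of 9, with a median of -0.25. On day 1, KO-KO replicate 1 was above its genotype's mean in 7 of 9 members (median 0.26) and WT-KO replicate 1 in 0 of 9 (median -0.16). On day 3, KO-WT replicate 2 was above it in 0 of 9 (median -0.21). Deviations within a day are tied to each other, because the removal of day effects makes them balance.

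Foxa3, a paralog of Foxa2, ran from 2.89 to 3.16 in WT-WT and from 3.20 to 3.46 in WT-KO, the opposite order to Foxa2; it reached the filter value in too few libraries to be tested and was picked out after its values were seen.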
